A study of Homo sapiens with 11 samples.

Results

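The clustered replication histone genes encode the core histones H2A, H2B, H3 and H4 and the linker histone H1, and most of them lie side by side in a large cluster on chromosome 6 and smaller ones on chromosome 1. They were taken as the older symbols beginning with HIST1H to HIST4H whose mean count over the 11 libraries was 10 or more. The count table of 27671 genes held 70 such symbols, and 35 of them met this threshold, namely 2 genes of H1, 11 of H2A, 10 of H2B, 6 of H3 and 6 of H4. Just inside the threshold lay HIST3H2BB with a mean count of 10.3 and HIST1H3E with 11.3, and just outside it HIST1H4E and HIST2H3D with 6.36 each. Of the 35 symbols under the threshold, 8 had 0 counts in all 11 libraries.

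Replication histone genes are switched on as cells enter S phase, when new DNA has to be packed into nucleosomes. Their mRNAs are the exception among animal mRNAs in that they end in a conserved stem-loop instead of a poly(A) tail. The stem-loop is bound by SLBP, the U7 small nuclear ribonucleoprotein guides the cut just behind it, and some histone genes also give longer polyadenylated transcripts that end at a conventional signal further downstream. Selection on poly(A) therefore keeps only a part of histone mRNA, and the levels given here are those of the part that was kept, not of all histone mRNA in the cells.

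The libraries came from HEK293T, a fast-growing line of human embryonic kidney origin with the large T antigen of SV40, and poly(A) RNA was selected with oligo dT. There were 3 libraries of cells given the DMSO vehicle, 2 of vehicle with ISRIB, 3 of the compound A8 at 10 µM and 3 of A8 with ISRIB. ISRIB binds the translation factor eIF2B and so blunts the integrated stress response, which the series title links to A8 and to the RNA sensor RIG-I. The dose of ISRIB is not given in the labels used here. The titles give 8 h of treatment and the treatment protocol gives 4 h. All groups are 1 cell line, which cycles without pause, and no label mentions synchronised cells or a measure of S phase. The design text calls the replicates biological. The p-values here weigh a difference between groups against the spread between the libraries within groups.

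Libraries held 34072107 to 35318111 counts over 17892 to 18017 detected genes. A count of 0 in a library allows a level of up to 3 counts, which is 0.0849 to 0.0880 CPM (counts relative to library size) before TMM scaling. This limit covers counting error only. The other CPM values given here are with TMM scaling. The 35 histone genes together took 2596 to 3142 counts per library, which is 0.00745% to 0.00902% of all counts. Of the markers of the HEK293 lineage NEFM, NEFL, PAX2, LHX1 and VIM, all 5 passed the filter on low counts, and none of 8 markers of blood, liver, muscle and skin cells did. In bulk RNA, fewer cells in S phase and less histone RNA per cell cannot be told apart.

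The stem-loop is what separates these genes from others, so its 16 bases were looked for in the annotated transcripts, on the sense strand only. The letters searched were those in capitals below, with any base allowed at positions 3, 4, 10 and 13 counted from the 5′ end. A match was found in 63 of 206694 GENCODE 29 transcripts, or 0.0305%, and 34 of the 45 genes that held it carry a clustered histone symbol. Of the 35 histone genes, 19 had a match, in 5 different spellings. The examples below, 1 for each spelling, show the 16-base stem-loop in capitals with 5 bases on either side, and all lie in the 3′ UTR on GRCh38.
HIST3H2A: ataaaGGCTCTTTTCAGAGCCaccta
HIST1H2BD: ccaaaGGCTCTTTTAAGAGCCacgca
HIST2H4A: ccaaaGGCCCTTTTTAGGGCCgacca
HIST1H4J: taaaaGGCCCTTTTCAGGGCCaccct
HIST1H2AG: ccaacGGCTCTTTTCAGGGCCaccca
The capitals lie at chr1:228457369-228457384 on the minus strand for HIST3H2A, at chr6:26158587-26158602 on the plus strand for HIST1H2BD, at chr1:149833032-149833047 on the plus strand for HIST2H4A, at chr6:27824459-27824474 on the plus strand for HIST1H4J and at chr6:27133515-27133530 on the plus strand for HIST1H2AG. The spelling of HIST3H2A was the commonest and was shared by 13 genes. The spelling of HIST1H2BD was shared by 2 genes, as was that of HIST2H4A, whereas those of HIST1H4J and HIST1H2AG were each found in 1. The 16 genes without a match include 11 whose longest annotated transcript is the coding sequence alone, so that for these the annotation holds no 3′ end to search.

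Where a transcript runs on behind the stem-loop, a poly(A) signal shows how an RNA of the gene can be caught by oligo dT. In 13 of the 19 genes an annotated transcript ran at least 50 bases past the stem-loop. The hexamer AATAAA lay behind the stem-loop and within the last 50 bases of the transcript in 11 of the 19. The capitals below mark it in 4 of these genes, chosen to show both short and long distances.
HIST1H2BD: acgcatgttttcAATAAAtgagttgtaatc
HIST2H2AA3: cccacgttttcaAATAAAagagttgttaat
HIST2H2BE: gctattgttattAATAAAgttaccaattaa
HIST2H3A: aaggggaaatggAATAAAacttcgttttgt
The printed windows lie at chr6:26158603-26158632 on the plus strand for HIST1H2BD, at chr1:149842192-149842221 on the minus strand for HIST2H2AA3, at chr1:149884465-149884494 on the minus strand for HIST2H2BE and at chr1:149854239-149854268 on the plus strand for HIST2H3A, all on GRCh38. The signal began 12 bases behind the stem-loop in HIST1H2BD and 13 bases behind it in HIST2H2AA3. It lay 1705 bases behind the stem-loop in HIST2H2BE and 1130 bases behind it in HIST2H3A. An annotated hexamer is a description of the reference sequence, and which 3′ end the counted reads came from was not tested.

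The histone RNA of these poly(A) libraries came from few genes. HIST1H2BK, which encodes a replication H2B, took 34.3% of all histone counts, the linker histone gene HIST1H1C 12.2% and HIST3H2A, an H2A gene of the small cluster on the long arm of chromosome 1, 9.93%. These 3 genes held 56.5% of the counts, and the 6 genes with a mean count over 100 held 68.1%. At the other end, 18 of the 35 genes averaged under 30 counts per library. By type, H2B genes took 47.3% of the histone counts, H2A genes 28.6%, H1 genes 12.9%, H4 genes 7.66% and H3 genes 3.52%, although the nucleosome holds the 4 core histones in equal number. The 24 genes of the HIST1 cluster held 71.6% of the counts, the 9 of HIST2 18.1% and the 2 of HIST3 10.3%, and HIST4H4, the only gene of its cluster, fell under the threshold with a mean count of 3.09.

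The H2B gene HIST1H2BK reached 29.6, 26.2 and 25.9 CPM in the vehicle libraries, 29.8 and 32.2 with ISRIB, 29.97, 26.2 and 28.8 with A8, and 22.6, 26.5 and 31.5 with A8 and ISRIB. Its lowest and its highest library were thus 22.6 and 32.2 CPM, and the group with A8 and ISRIB spanned nearly that whole range by itself. HIST1H1C, whose product H1.2 binds linker DNA between nucleosomes, reached 11.6, 9.002 and 8.97 CPM with vehicle, 8.49 and 10.4 with ISRIB, 11.7, 10.6 and 10.0 with A8, and 7.97, 10.2 and 10.8 with both. HIST3H2A reached 9.30, 9.002 and 7.26 CPM with vehicle, 7.25 and 7.13 with ISRIB, 9.65, 7.31 and 8.77 with A8, and 8.14, 8.11 and 7.33 with both. For HIST1H1C and HIST3H2A the A8 libraries overlapped the vehicle libraries, and for HIST3H2A both ISRIB libraries lay below the lowest vehicle library by less than the vehicle libraries differed among themselves.

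Per kilobase of the longest annotated transcript, the order within each type was as follows. Among H2B genes HIST1H2BK stood at 73.8 CPM per kb, HIST1H2BD at 3.65 and HIST1H2BL at 2.47. The value of HIST1H2BK is too high as a level per length, because its only GENCODE 29 transcript is the coding sequence of 381 bases. RefSeq gives the gene a span of 8566 bases. That is the span of the gene and not a transcript length, so how far too high the value is cannot be read from it. Among H2A genes HIST3H2A stood at 9.07 CPM per kb, HIST2H2AC at 6.85 and HIST2H2AA3 at 6.32. HIST1H1C stood at 15.5 CPM per kb and HIST1H1E, the other H1 gene, at 0.810. The highest H4 genes per length were HIST1H4K with 4.13, HIST1H4J with 3.08 and HIST1H4C with 1.499 CPM per kb. By CPM, HIST2H4B at 1.43 and HIST2H4A at 1.36 stood above these, on annotated transcripts of 1694 and 1547 bases against 312 for HIST1H4K. The annotated transcripts of HIST1H1C, HIST2H2AC, HIST1H4K and HIST1H3B are also the coding sequence alone, so the order per length depends on the annotation. The H3 genes were lowest as a type, led by HIST1H3J with 0.938, HIST1H3B with 0.875 and HIST1H3H with 0.469 CPM per kb. HIST1H3J and HIST1H3B differed by less than their spread over libraries, and so did HIST2H2AC and HIST2H2AA3.

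**Figure D1:**
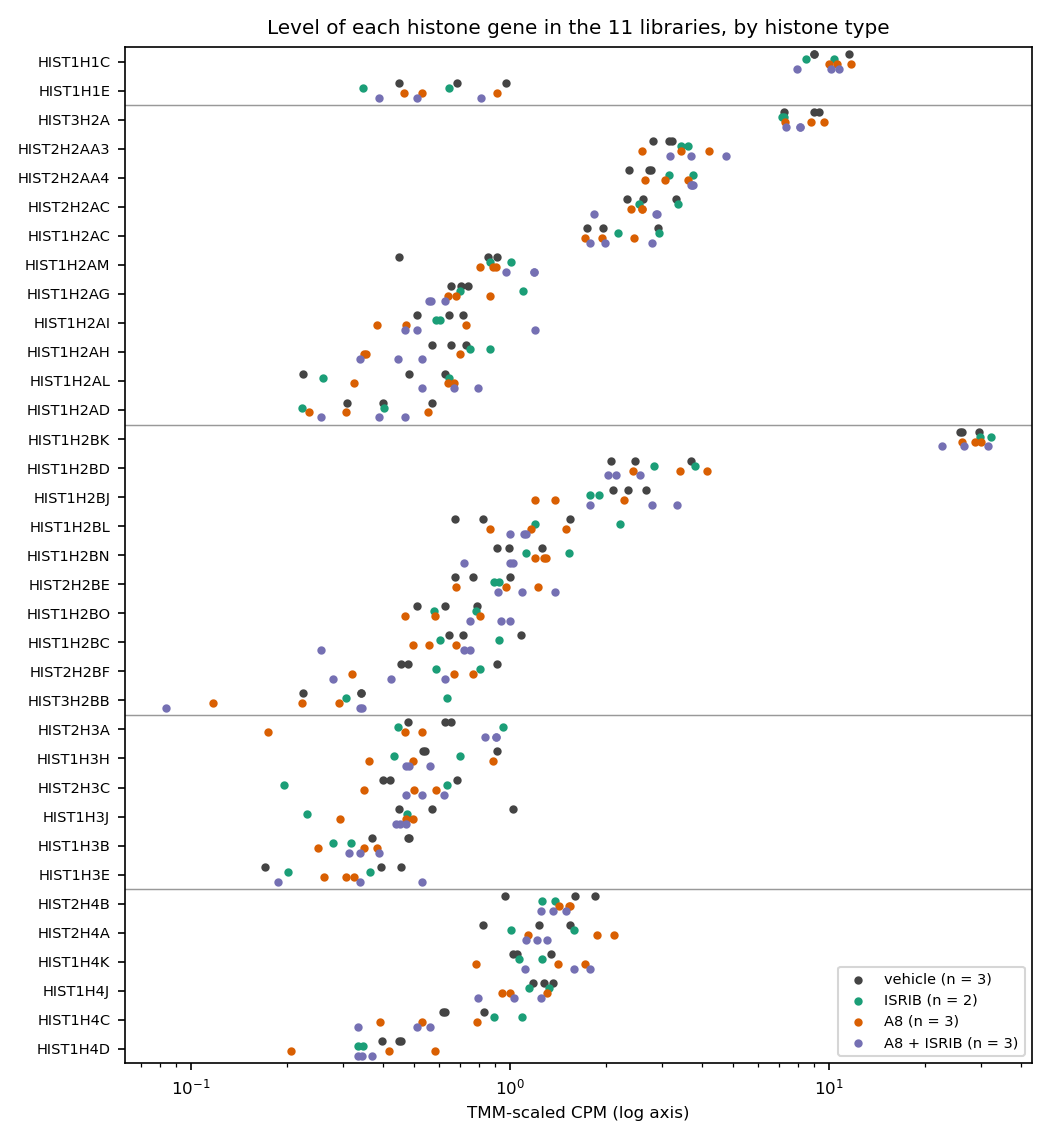
Level of each of the 35 genes (rows, grouped by histone type and ordered by mean) in TMM-scaled CPM on a log axis, with 1 point per library coloured by group. HIST1H2BK lies alone at 22.6 to 32.2 CPM, HIST1H1C and HIST3H2A follow at 7.13 to 11.7 CPM, and the 4 colours are mixed in nearly every row.

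Several of these genes are known to give polyadenylated transcripts in differentiated or cycling cells. A list of 7 of them, HIST1H1C, HIST1H2AC, HIST1H2BC, HIST1H2BD, HIST1H2BK, HIST2H2BE and HIST4H4, held 6 of the 35 genes and 54.8% of the histone counts, most of it from HIST1H2BK and HIST1H1C. Of the other 4, HIST1H2BD at 3.65 and HIST1H2AC at 1.33 CPM per kb stood above the median of 1.24 over the 35 genes, and HIST1H2BC at 1.03 and HIST2H2BE at 0.437 below it.

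The replacement histones, whose genes lie outside the clusters and mostly give ordinary polyadenylated mRNA, were measured in the same libraries. H2AFX stands apart among the 11 genes of a list of them, since both of its annotated transcripts hold the stem-loop, and 1 runs 1044 bases past it, whereas no annotated transcript of the other 10 holds it. The 11 genes ranged from 3.23 CPM per kb for H2AFJ to 254.5 for H2AFX, with a median of 37.3. H2AFX encodes H2A.X, which is phosphorylated at DNA breaks, and it averaged 410.8 CPM, while H2AFZ, which encodes H2A.Z, averaged 275.5 CPM (146.5 per kb) and H3F3B, which encodes H3.3, 213.6 CPM (76.6 per kb). All 11 stood above the median clustered gene, 8 stood above the second-highest clustered gene, and 3 stood above HIST1H2BK. Summed without regard to length, the 11 replacement genes reached 1565 CPM and the 35 clustered genes 81.8 CPM.

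**Figure D2:**
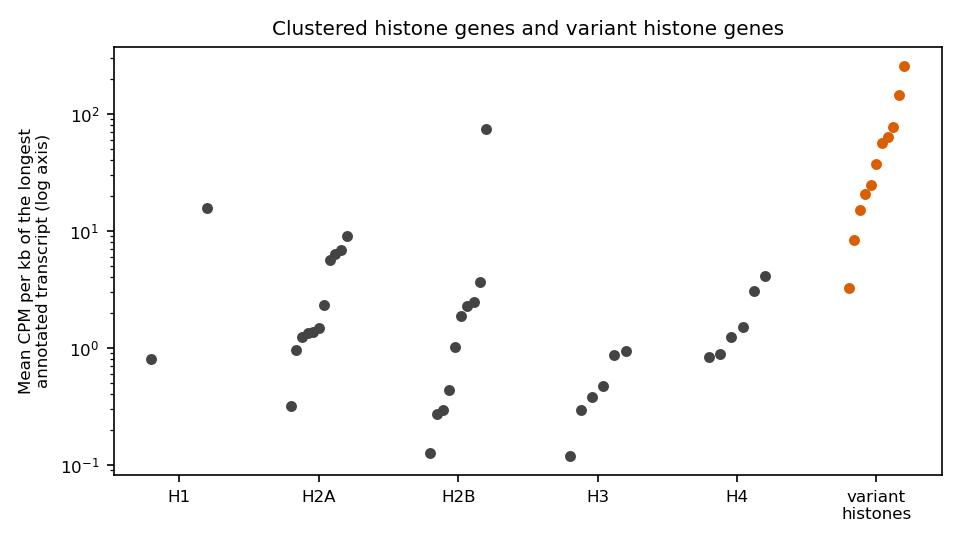
Mean level over 11 libraries in CPM per kilobase of the longest annotated transcript (log axis), 1 point per gene, for the 35 clustered genes by type and the 11 replacement (variant) histone genes. Within H2B the highest point is HIST1H2BK at 73.8 CPM per kb, and the replacement genes run from 3.23 to 254.5 CPM per kb.

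Many H2A and H2B genes stand head to head and share the stretch between their start sites, which allows a level to be compared across 1 promoter region. RefSeq promoter windows on GRCh38.p14, which reach from upstream of a start to just past it, were matched for 32 of the 35 genes, all except HIST1H2AH, HIST1H3J and HIST1H4C. In 6 H2A and H2B pairs the windows of both genes overlapped. HIST3H2A stood at 9.07 ± 1.04 CPM per kb (SD, n = 11 libraries) and its neighbour HIST3H2BB at 0.125 ± 0.061 (SD, n = 11), a ratio of 72.5 per kilobase of transcript and of 26.6 per kilobase of coding sequence. HIST2H2AC exceeded HIST2H2BE 15.7-fold by transcript length and 2.72-fold by coding length, and HIST1H2BJ exceeded HIST1H2AG 7.14-fold and 3.11-fold. In these 3 pairs the same gene was the higher one in all 11 libraries under both lengths.

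The remaining pairs were closer. HIST1H2BL exceeded HIST1H2AI 2.00-fold under both lengths, in 10 of 11 libraries. HIST1H2AM exceeded HIST1H2BO 1.24-fold, in 9 of 11 libraries, and HIST1H2AC exceeded HIST1H2BC 1.298-fold by transcript length, in 9 of 11, and 3.19-fold by coding length, in 11 of 11. The higher gene was thus an H2A gene in 4 pairs and an H2B gene in 2. The strand setting of the deposited counts is not given in the sources used here, so reads of one gene that run into its neighbour cannot be told apart.

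The promoter windows of the pair with the widest gap, of a pair with a narrower one and of the most abundant gene are shown because their levels differ so much. Capitals mark TATAAA, the letters CCAAT and the octamer ATTTGCAT on either strand, and matches that overlap are merged.
HIST3H2BB and HIST3H2A: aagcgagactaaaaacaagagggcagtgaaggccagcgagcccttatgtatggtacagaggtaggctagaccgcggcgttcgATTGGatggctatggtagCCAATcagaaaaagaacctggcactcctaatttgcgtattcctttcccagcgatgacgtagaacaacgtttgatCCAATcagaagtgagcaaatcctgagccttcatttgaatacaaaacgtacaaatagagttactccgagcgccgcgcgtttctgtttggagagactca
HIST2H2AC and HIST2H2BE: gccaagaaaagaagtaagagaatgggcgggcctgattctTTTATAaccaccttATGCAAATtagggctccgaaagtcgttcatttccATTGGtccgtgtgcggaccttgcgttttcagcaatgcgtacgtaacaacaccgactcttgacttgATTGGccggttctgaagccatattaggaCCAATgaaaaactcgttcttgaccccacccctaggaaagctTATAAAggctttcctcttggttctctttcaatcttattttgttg
HIST1H2BK: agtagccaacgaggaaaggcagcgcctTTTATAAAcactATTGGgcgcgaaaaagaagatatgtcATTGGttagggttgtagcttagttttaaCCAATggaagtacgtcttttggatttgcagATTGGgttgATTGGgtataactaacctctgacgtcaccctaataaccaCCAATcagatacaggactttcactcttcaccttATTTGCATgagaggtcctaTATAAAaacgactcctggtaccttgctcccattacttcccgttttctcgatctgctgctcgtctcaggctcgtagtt
The shared window of HIST3H2BB and HIST3H2A is 271 bases long at chr1:228457853-228458123 and is written in the direction of HIST3H2BB, that of HIST2H2AC and HIST2H2BE is 265 bases long at chr1:149886668-149886932 and is written in the direction of HIST2H2AC, and that of HIST1H2BK lies at chr6:27146809-27147108 on the minus strand. The shared window of HIST3H2A and HIST3H2BB, by CPM the third most abundant and the least abundant of the 35 genes, holds neither TATAAA nor ATTTGCAT. Whether these motifs bear on the levels was not tested. That of HIST2H2AC and that of HIST1H2BK hold all 3 motifs.

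Over the 32 matched genes, TATAAA was found in 23 windows and in 11.5% of all 35116 windows. CCAAT was found in 27 of the 32, against 34.6% of all windows, and the 5 without it were the 5 matched H4 genes. The octamer ATTTGCAT, the letters bound by OCT1 in H2B promoters, was found in 12 of the 32, against 1.77% of all windows. These 12 were 6 of 10 H2B genes and 6 of 10 H2A genes, and neighbours that share a window count for the same match. A match is a description of the letters in the window and no evidence of binding.

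Near-identical copies limit what a value of 1 gene means. Coding sequences were identical in the pairs HIST1H4J and HIST1H4K, HIST2H2AA3 and HIST2H2AA4, HIST2H3A and HIST2H3C, and HIST2H4A and HIST2H4B. Across all equal-length pairs of 1 type the identity of coding sequence ranged from 84.22% for H2A, 85.83% for H2B, 81.02% for H3 and 79.49% for H4 upwards. How the authors' counting treated reads that match 2 copies is not given in the sources used here, so the values of such pairs are uncertain one by one. The counts of HIST2H2AA3 and HIST2H2AA4 stood in a median ratio of 1.03 over libraries, those of HIST2H4A and HIST2H4B in one of 0.870, and those of HIST2H3A and HIST2H3C in one of 1.45, reaching 2.29 in 1 library.

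The spread between replicates was wider for genes with low counts. The median coefficient of variation within groups was 33.9% for the 18 genes under 30 counts, 22.3% for the 11 genes at 30 to 100 counts and 12.2% for the 6 above 100, where counting alone would give 22.4%, 14.97% and 7.53%. In every library the value 2 was listed more often (729 to 801 genes) than the value 1 (512 to 582 genes). What was counted, reads or pairs, is not given in the sources, so the counting figures are taken as a lower limit.

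Treatment with A8 was compared with vehicle to see whether the compound moved histone RNA. No histone gene passed the test: 0 of 35 were called by edgeR's quasi-likelihood test at an adjusted p under 0.05 (0.141% of all 15591 genes tested were called). The DESeq2 Wald test called 0 of the 22 to which it gave an adjusted p, and 0.849% of all genes with one. At an unadjusted p under 0.05 the count was 1 of 35, against 10.2% of all genes. The summed level was 89.7, 77.5 and 73.9 CPM in the vehicle libraries and 89.2, 75.04 and 82.7 with A8, so that the groups overlapped almost fully, at 80.4 ± 8.2 (SD, n = 3) and 82.3 ± 7.1 CPM (SD, n = 3). The median log2 fold change of the 35 genes was -0.07, against 0.01 over all genes, and 15 of 35 were above 0 (51.8% of all genes were). Without vehicle replicate 1 that median was 0.08. No gene had vehicle and A8 libraries that did not overlap, against 16.6% of all genes.

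HIST1H2BJ, an H2B gene of the HIST1 cluster, had the lowest p with A8. It stood at 2.34, 2.67 and 2.11 CPM with vehicle and at 2.27, 1.20 and 1.38 with A8, so 1 of the 3 A8 libraries lay within the vehicle range. Its log2 fold change was -0.55 (SE 0.26, 95% interval -1.10 to -0.01, edgeR adjusted p = 0.482). The other large differences were HIST1H3J at -0.69 and HIST2H3A at -0.57 on the log2 scale on one side, and HIST2H4A at 0.51, HIST1H2AL at 0.29 and HIST1H2BD at 0.27 on the other, with adjusted p from 0.563 to 0.876 in edgeR. HIST2H4A reached 1.54, 1.24 and 0.826 CPM with vehicle and 2.13, 1.14 and 1.88 with A8, and the highest vehicle library lay above the lowest A8 library. Summed with HIST2H4B, whose coding sequence is identical, its log2 fold change was 0.26 (95% interval -0.20 to 0.72, edgeR adjusted p = 0.735).

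By type, all 6 H3 genes had log2 fold changes below 0 with A8, from -0.69 to -0.06 with a median of -0.32. None of them was called. With ISRIB alone against the same vehicle libraries their median was -0.27, and 1 of the 6 lay above 0. With A8 and ISRIB against vehicle it was -0.14, and 3 of the 6 lay above 0. A median below 0 against these vehicle libraries was thus not particular to A8 alone. Their summed level was 3.54, 2.76 and 3.36 CPM with vehicle, 2.77 and 2.46 with ISRIB, 2.13, 2.43 and 2.94 with A8, and 3.18, 3.15 and 2.94 with both. The highest A8 library lay above the lowest vehicle library. HIST2H3A and HIST2H3C have identical coding sequences, so the 6 genes do not give 6 separate values. Summed with HIST2H3D, these copies had a log2 fold change of -0.15 with A8 (SE 0.30). HIST1H3J, the highest H3 gene per length, reached 1.03, 0.450 and 0.569 CPM with vehicle and 0.496, 0.474 and 0.294 with A8, and 1 vehicle library stood apart from the other two. Its log2 fold change with A8 was -0.69 over all libraries and -0.27 without that library, vehicle replicate 1. The other types were centred near 0, with medians of 0.01 for H2A, 0.01 for H2B, 0.00 for H1 and -0.04 for H4. No test of a type as a whole was made.

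**Figure D3:**
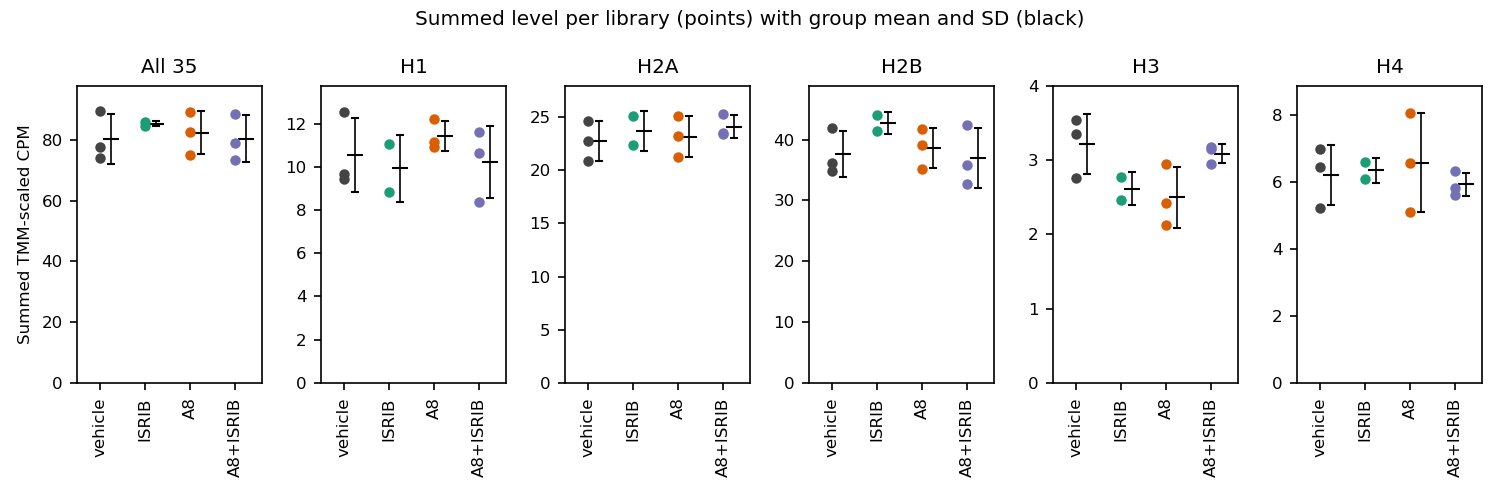
Summed TMM-scaled CPM of all 35 genes and of each histone type, with 1 point per library and the group mean and SD in black (n = 3, or n = 2 for ISRIB), each axis starting at 0. The 4 groups overlap in the total at 73.4 to 89.7 CPM, and the H3 sums lie between 2.13 and 3.54 CPM.

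ISRIB without A8 was compared with vehicle. Again 0 of the 35 genes were called by edgeR (0% of all genes were), and 0 of the 3 with an adjusted p by DESeq2 (0.316% of all genes with one were), and at an unadjusted p under 0.05 there were 2 of 35, against 9.58% of all genes. The 2 ISRIB libraries summed to 84.8 and 86.0 CPM, inside the vehicle range of 73.9 to 89.7 CPM. The median log2 fold change was 0.08, and 20 of 35 genes were above 0, against 50.5% of all genes. The libraries of the 2 groups did not overlap for 9 genes, or 25.7%, against 29% of all genes.

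The 2 genes were HIST2H2AA4 and HIST1H2BL. HIST2H2AA4, an H2A gene with a near-identical copy in HIST2H2AA3, stood at 2.77, 2.36 and 2.73 CPM with vehicle and at 3.75 and 3.16 with ISRIB, a log2 fold change of 0.40 (SE 0.18, edgeR adjusted p = 0.502). Both ISRIB libraries lay above all vehicle libraries. Summed with HIST2H2AA3 its log2 fold change was 0.29 (95% interval -0.03 to 0.61, edgeR adjusted p = 0.553). HIST1H2BL stood at 1.54, 0.675 and 0.826 CPM with vehicle and at 2.22 and 1.20 with ISRIB, a log2 fold change of 0.75 (SE 0.35, edgeR adjusted p = 0.517), and its groups overlapped. Other large differences were HIST1H3J at -0.94, HIST1H3B at -0.57 and HIST1H1E at -0.50 below 0, and HIST3H2BB at 0.63 and HIST1H4C at 0.52 above it, all at an edgeR adjusted p of 0.542 to 0.756. With only 2 ISRIB libraries, several of these sizes rest on 1 of them. HIST3H2BB was at 0.02 without ISRIB library a and at 1.06 without library b, HIST1H2BL at 0.25 and 1.13, HIST1H3J at -0.51 and -1.55, and HIST1H1E at -0.12 and -1.01.

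A8 with ISRIB was set against A8 alone to see what ISRIB did where A8 was present. Here 0 of 35 genes were called by edgeR, against 0.18% of all genes, and 0 of 35 by DESeq2, against 0.321%. The summed level was 73.4, 79.1 and 88.7 CPM with both, 80.4 ± 7.7 CPM (SD, n = 3), and overlapped that of A8 alone. The median log2 fold change was 0.00 (-0.10 to 0.06 when any 1 library was left out), with 18 of 35 genes above 0, against 49.7% of all genes. There were 3 genes at an unadjusted p under 0.05, or 8.57%, against 5.91% of all genes, and 5 genes, or 14.3%, whose libraries did not overlap, against 11.1% of all genes.

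HIST2H3A, an H3 gene, had the largest difference. It stood at 0.175, 0.530 and 0.471 CPM with A8 and at 0.837, 0.908 and 0.908 with A8 and ISRIB, on counts of 6, 19 and 16 against 30, 32 and 29, and the groups did not overlap. Its log2 fold change was 1.16 (SE 0.40, 95% interval 0.32 to 2.01, edgeR adjusted p = 0.601). Summed with its copies HIST2H3C and HIST2H3D, however, the difference was 0.47 (95% interval -0.16 to 1.10, edgeR adjusted p = 0.910), and HIST2H3C alone had a value of 0.18. HIST1H2BJ stood at 2.27, 1.20 and 1.38 CPM with A8 and at 3.35, 1.79 and 2.79 with both, a log2 fold change of 0.71 (SE 0.26, edgeR adjusted p = 0.640), with overlapping groups. HIST1H2BD stood at 4.14, 2.43 and 3.41 CPM with A8 and at 2.04, 2.16 and 2.57 with both, a log2 fold change of -0.56 (SE 0.24, edgeR adjusted p = 0.783), and 1 library with both lay within the range of A8. HIST2H4A at -0.49, HIST1H2BN at -0.45 and HIST1H2BO at 0.52 completed the largest differences, with adjusted p from 0.885 to 0.902 in edgeR. Summed with its copy HIST2H4B, HIST2H4A was at -0.31 (edgeR adjusted p = 0.916).

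**Figure D4:**
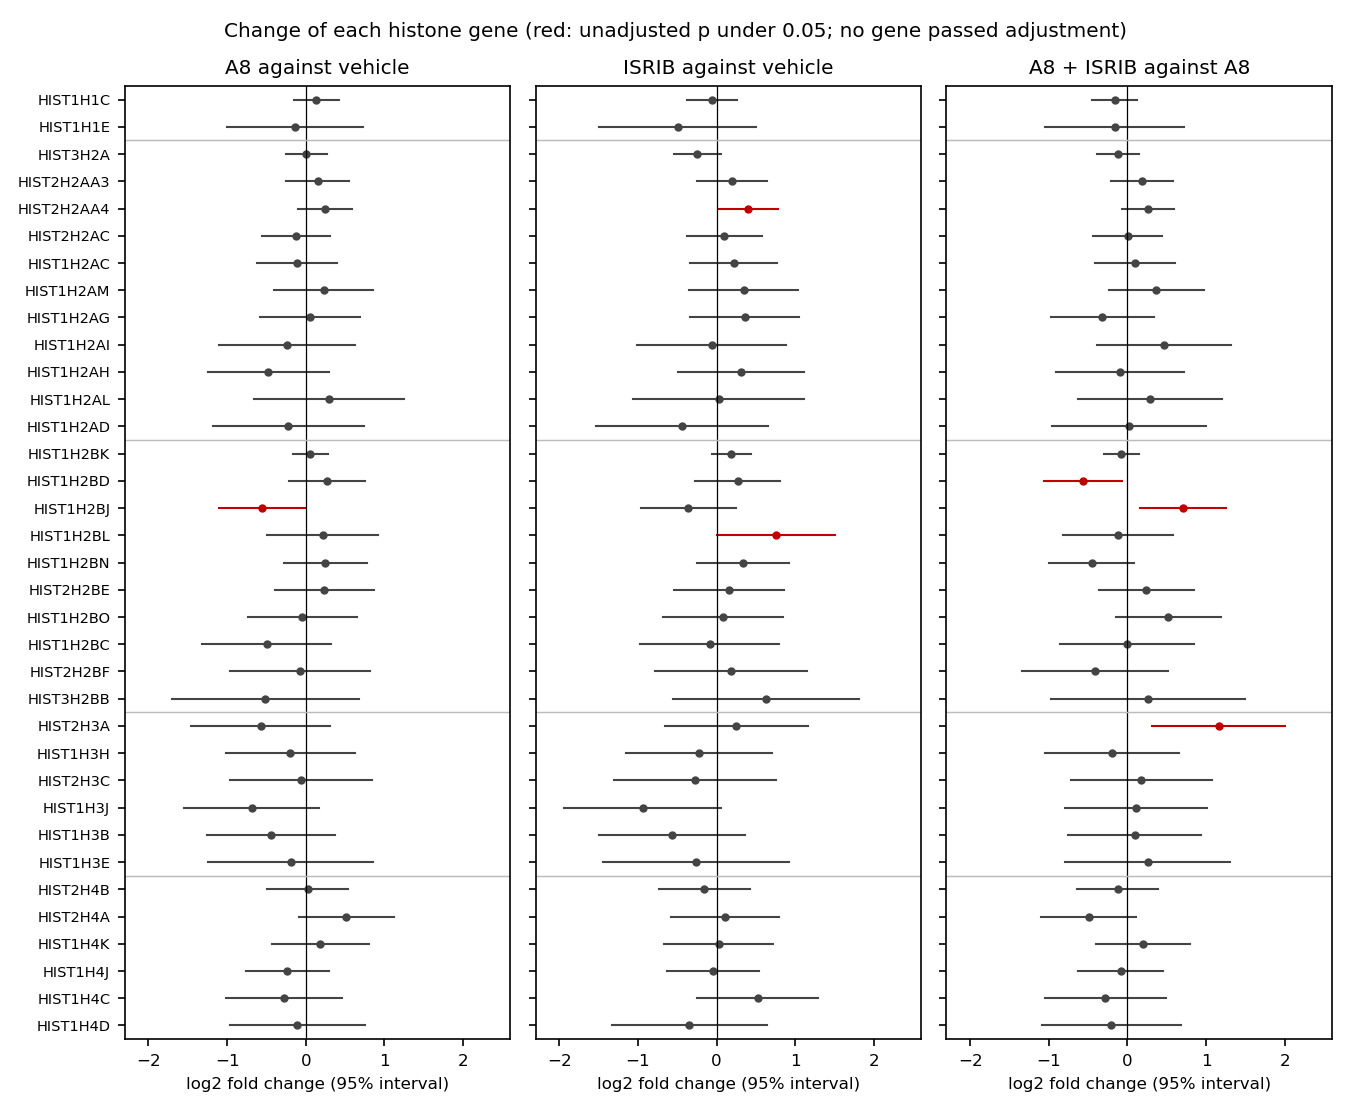
Log2 fold change of each of the 35 genes (rows as in the plot of levels) with its 95% interval for A8 against vehicle, ISRIB against vehicle and A8 with ISRIB against A8. Red marks an unadjusted p under 0.05, which holds for 1, 2 and 3 genes, and no gene passed at an adjusted p under 0.05.

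The remaining contrasts also use the libraries given both compounds. In A8 with ISRIB against ISRIB alone 0 of 35 genes were called by edgeR, against 0.0128% of all genes, and 0 of the 7 with an adjusted p by DESeq2, against 0.523%, while 3 had an unadjusted p under 0.05, against 8.32% of all genes. HIST1H4C, an H4 gene, stood at 0.895 and 1.09 CPM with ISRIB and at 0.335, 0.511 and 0.564 with both, a log2 fold change of -1.08 (SE 0.38, 95% interval -1.88 to -0.28, edgeR adjusted p = 0.495), without overlap. HIST1H2AH at -0.88 and HIST1H2BD at -0.56 were the other genes of that count. HIST3H2BB at -0.88, HIST1H2AL at 0.55, HIST1H2BJ at 0.51 and HIST1H2BO at 0.39 made up the largest differences (edgeR adjusted p = 0.658 to 0.811). Without ISRIB library a, HIST3H2BB was at -0.28, HIST1H2AL at 0.05 and HIST1H2BO at 0.19. The median log2 fold change was 0.06, and -0.03 to 0.06 when any 1 library was left out, being above 0 only without replicate 2 of A8 with ISRIB, and 20 of 35 genes were above 0, against 50.5% of all genes. The libraries did not overlap for 7 genes, or 20%, against 25.2% of all genes. Only 2 libraries stand on the ISRIB side of this contrast and of that with vehicle.

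In A8 with ISRIB against vehicle 0 of 35 genes were called by edgeR, against 0.0192% of all genes, and 0 of the 7 with an adjusted p by DESeq2, against 0.223%, while 1 had an unadjusted p under 0.05, against 7.7% of all genes. That gene was HIST2H2AA4, at 2.77, 2.36 and 2.73 CPM with vehicle and 3.71, 3.72 and 3.76 CPM with both. The groups did not overlap, and the log2 fold change was 0.51 (SE 0.16, 95% interval 0.17 to 0.85, edgeR adjusted p = 0.438), the lowest adjusted p of any of the 35 genes in any contrast. Summed with its copy HIST2H2AA3 it was 0.42 (95% interval 0.13 to 0.70, edgeR adjusted p = 0.450). HIST1H2AM at 0.60, HIST2H3A at 0.59 and HIST1H2AL at 0.58 were the largest differences above 0, and HIST1H3J at -0.58, HIST1H2AH at -0.57 and HIST1H4C at -0.56 the largest below it. Summed with HIST2H3C and HIST2H3D, HIST2H3A was at 0.31 (edgeR adjusted p = 0.861). The median log2 fold change was -0.10, and 14 of 35 genes were above 0, against 51.1% of all genes. The libraries of 7 genes, or 20%, did not overlap, against 12.4% of all genes.

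The interaction is the difference between the change with A8 in the presence of ISRIB and that in its absence. For 0 of 35 genes was it called by edgeR, against 0.0257% of all genes, and for 0 of the 3 with an adjusted p by DESeq2, against 0.437%, and 2 genes had an unadjusted p under 0.05, against 8.48% of all genes. HIST1H2BJ had an interaction of 1.07 on the log2 scale (SE 0.38, 95% interval 0.25 to 1.88, edgeR adjusted p = 0.518) and HIST1H2BD one of -0.83 (SE 0.35, 95% interval -1.57 to -0.10, edgeR adjusted p = 0.542). HIST1H2BL at -0.88 and HIST1H4C at -0.80, and HIST1H3J at 1.05 and HIST2H3A at 0.91, were the other large ones (edgeR adjusted p = 0.656 to 0.706). Summed with HIST2H3C and HIST2H3D, HIST2H3A had an interaction of 0.40 (edgeR adjusted p = 0.838). The median was 0.03 (-0.09 to 0.12 when any 1 library was left out, below 0 for 5 of the 11), and 19 of 35 genes were above 0, against 48.2% of all genes. All 6 H3 genes were above 0, with a median of 0.59 and a range of 0.03 to 1.05, which draws on the same vehicle and A8 libraries as their values with A8 and is not a separate result. Over all 6 contrasts, 12 of 210 tests, on 7 different genes, had an unadjusted p under 0.05. Over all genes tested, the single contrasts gave 5.91% to 10.2%.

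How large a change these libraries could have hidden is given by the intervals. For A8 against vehicle the 95% interval of the log2 fold change lay wholly within -1 to 1, that is within a doubling or halving, for 20 of the 35 genes, and it reached past that for 15. It was narrowest for HIST1H2BK, whose log2 fold change was 0.06 with an interval of -0.17 to 0.28, followed by HIST3H2A at 0.01 (-0.26 to 0.27) and HIST1H1C at 0.13 (-0.15 to 0.42). The median half-width over the 35 genes was 0.69, and the widest was 1.19, for HIST3H2BB. For genes under 30 counts, all 6 H3 genes among them, a change of 1.5-fold either way was not detectable at this depth. The same held for some genes above 30 counts, such as HIST1H2BL at a mean count of 41.8, with an interval of -0.49 to 0.92. The intervals are not adjusted for the number of genes tested, so a change whose interval leaves out 0 need not be called. HIST1H2BJ, with an interval of -1.10 to -0.01, was not called.

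**Figure D5:**
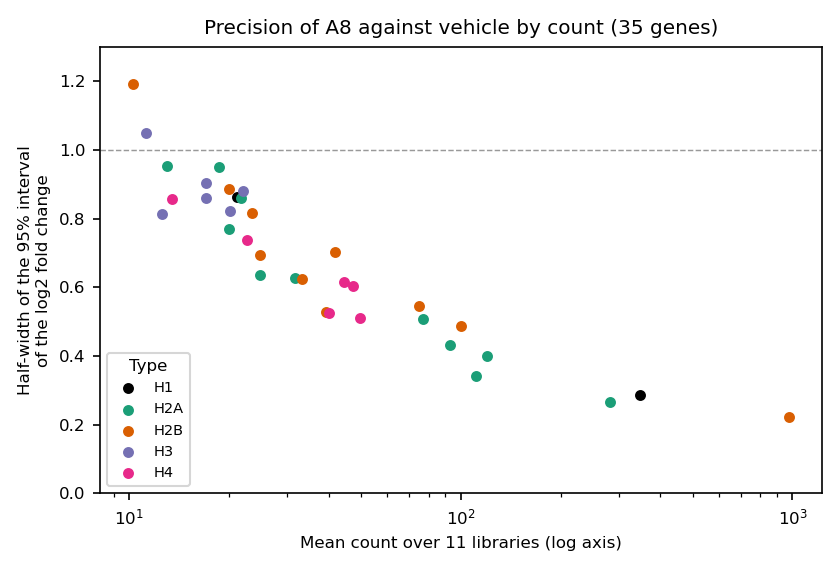
Half-width of the 95% interval of the log2 fold change of A8 against vehicle plotted against the mean count over 11 libraries (log axis), 1 point per gene coloured by histone type, with a dashed line at 1. The half-width falls from 1.19 for HIST3H2BB at a mean count of 10.3 to 0.22 for HIST1H2BK at 977.6.

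The genes that transcribe, cut and degrade histone mRNA were well measured. Of 13 factors of histone gene transcription and 3′ end processing, 0 were called in any of the 6 contrasts by edgeR, where the whole table gave 0% to 0.18%. DESeq2 also called 0 of them, and 0.223% to 0.849% of all genes with an adjusted p. In edgeR 4 had an unadjusted p under 0.05 with A8, against 10.2% of all genes. With A8, SLBP, the stem-loop binding protein, had a log2 fold change of -0.20 (SE 0.07, edgeR adjusted p = 0.315), and ZNF473, a component of the U7 processing complex, one of 0.24 (SE 0.08, edgeR adjusted p = 0.290). The most abundant of the list were SRRT, or ARS2, at 595.0 CPM, with a log2 fold change of -0.18 with A8, and the scaffold protein SYMPK at 287.1 CPM. The 8 genes of histone mRNA decay, such as UPF1 and the exonuclease ERI1, and the 15 histone chaperones, such as NASP and the FACT subunits SSRP1 and SUPT16H, also gave 0 calls by edgeR and by DESeq2 in all 6 contrasts, with 0 of 8 and 1 of 15 at an unadjusted p under 0.05 with A8 (10.2% of all genes). The shares of all genes called are again 0% to 0.18% by edgeR and 0.223% to 0.849% by DESeq2.

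The replacement histones gave 0 calls out of 11 by edgeR in all 6 contrasts, where 0% to 0.18% of all genes were called. With A8, 2 had an unadjusted p under 0.05, against 10.2% of all genes. H2AFX had the lowest p among them with A8, with a log2 fold change of -0.29 (SE 0.07, 95% interval -0.44 to -0.13, edgeR adjusted p = 0.161), and DESeq2 called it (adjusted p = 0.0300), as it did 0.849% of all genes with an adjusted p, so this call depends on the test. Of the 11, 3 were above 0 with A8, against 51.8% of all genes. Of 33 genes of G1/S and DNA replication and 16 of G2 and mitosis, 0 were called by edgeR in any contrast (0% to 0.18% of all genes were), with 5 and 1 at an unadjusted p under 0.05 with A8 (10.2% of all genes). DESeq2 called 1 gene of each of these lists, CDT1 and AURKA, in A8 with ISRIB against ISRIB alone, where it called 0.523% of all genes with an adjusted p. The 2 lists' median log2 fold changes with A8 were -0.02 and -0.01. Above 0 with A8 were 12 of the 33 and 8 of the 16, against 51.8% of all genes. The ribonucleotide reductase subunit RRM2 had a value of -0.21 with A8 (SE 0.06, edgeR adjusted p = 0.214). The primase subunit PRIM1 had one of 0.22 (SE 0.07, edgeR adjusted p = 0.278). In A8 with ISRIB against ISRIB alone, edgeR gave an unadjusted p under 0.05 to 9 of the 33 and 4 of the 16 genes. All genes gave 8.32%, and 11 of the 33 and 1 of the 16 lay above 0. With ISRIB alone against vehicle there were 6 and 2, against 9.58%, and 19 of the 33 and 14 of the 16 lay above 0. For the interaction there were 8 and 2, against 8.48%.

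RNAs without a poly(A) tail were counted as a measure of how strict the selection was. The 12 genes of such a list summed to 10.6 to 42.5 CPM in the vehicle libraries, 12.5 to 32.0 with ISRIB, 10.2 to 23.0 with A8 and 25.9 to 35.6 with both. Most of it was RN7SL1 and RN7SL2, the RNA of the signal recognition particle, and without them the sums were 2.85 to 8.24 CPM over all libraries. The sum was higher in all 3 libraries with A8 and ISRIB than in any with A8 alone. Without RN7SL1 and RN7SL2 this was not so. The sums were then 4.23, 2.85 and 8.24 CPM with A8 and 3.46, 3.89 and 5.07 with both, and the groups overlapped. In that contrast 0 of the 7 genes that passed the filter were called by edgeR or by DESeq2, against 0.18% and 0.321% of all genes. At an unadjusted p under 0.05 there were 3 of the 7 in edgeR, against 5.91% of all genes, and 1 in DESeq2, against 5.55%. Its part in the differences of the histone genes between these groups was not tested.

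The authors' deposited tables of DESeq2 results against vehicle list all 35 genes. None was called there: the lowest adjusted p in the authors' deposited table was 0.869 for ISRIB, 0.712 for A8, where only 18 of the 35 genes carry an adjusted p, and 0.395 for A8 with ISRIB. The log2 fold changes of the authors' deposited tables differed from those given here by at most 0.011.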

How the data were processed

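Poly(A)-selected, strand-specific libraries of HEK293T cells were sequenced on a DNBSEQ instrument, per the labels' protocols. The authors deposited whole-number counts per gene symbol for 11 libraries and 3 tables of their own comparisons. Per the submitters' processing notes the build was GRCh37 and DESeq and DESeq2 were used, and no source used here names the aligner, counter, strand setting or annotation. Per the file headers, the authors' deposited tables give a mean normalised signal, log2 fold changes with their errors, a Wald score and p-values. The 2 columns of vehicle with ISRIB could not be matched to single samples and were assigned to their group only.

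Counts were tested with edgeR 4.0.16 in R 4.3.3 (filterByExpr at a minimum count of 10, which left 15591 genes, TMM scaling, 1 model over all 4 groups, quasi-likelihood test, Benjamini-Hochberg adjustment over all genes tested, called under 0.05). DESeq2 1.42.0 was the alternative. SE is the log2 fold change divided by the square root of F, and intervals are 95%. The test was checked on simulated data with changes of a doubling or halving or more, in genes drawn from all those tested. That check does not show what could be detected for smaller changes or at low counts. Members and gene lists were chosen with earlier results of these data known. Named genes were any called in a comparison, the 3 highest per length of each type, the 3 largest differences of each sign in each comparison, known polyadenylated members, and from other lists the most abundant or called, while other genes of those lists were named after their values were seen. Sequences came from GENCODE 29 (GRCh38) and RefSeq (GRCh38.p14), and none of their coordinates was mixed with the deposited files. Alternatives were DESeq2's test and size factors, other filters, summed copies, fits of only the groups compared, a replicate block and leaving out each library.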

Additional observations from a re-analysis of the deposited data

How the results depend on the processing

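The count of histone genes called was 0 in all 83 recomputed values (6 contrasts, each under the alternatives that could be fitted), and the median log2 fold change of the 35 genes stayed within the spread between replicates (SD 0.110) in 79 of them. For A8 against vehicle it was 0.143 among genes with a mean count of at least 100, instead of -0.071 over all, and leaving out 1 library at a time gave -0.0947 to 0.0768, above 0 only without vehicle replicate 1. For the interaction it was -0.121 at a mean count of at least 100, and leaving out 1 library gave -0.0937 to 0.122, below 0 without vehicle replicate 1, ISRIB library b, A8 replicate 2, A8 replicate 3 or replicate 3 of A8 with ISRIB. The cause was not tested. Of 456 values of single genes, 455 kept their direction and call. These genes were chosen as the largest differences of the main fit, where none was called, so that count is no separate support. Sizes moved: leaving out 1 library changed 24 of 36 fold changes by over 1.5 times at least once, and the log2 fold change of HIST1H2AL with A8 ranged from -0.0255 without vehicle replicate 2 to 0.621 without vehicle replicate 1. With replicate number as a block, in the 9 libraries whose columns carry one, 0 genes were called and the medians were -0.109 for A8, -0.012 for A8 with ISRIB against A8 and -0.088 for A8 with ISRIB against vehicle. Same-numbered libraries correlated at -0.267 to 0.230 and others at -0.219 to 0.282, so no pairing by number was visible. These correlations are of deviations from the means of small groups, so they cannot decide whether same-numbered samples share more than a number. The block could not be fitted for contrasts with ISRIB alone, and the interaction was not refitted on fewer groups because it uses all. Depth limits the 18 genes under 30 counts most.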
